A study of Mus musculus with 12 samples.

Results

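Interferon-stimulated and antigen presentation genes were followed in NMuMG cells, a mouse mammary gland epithelial line, grown as spheroids on Matrigel. The set was a list of 34 genes taken by symbol from the array's probe table. A probe was used when its signal exceeded that of the negative control beads on 4 or more of the 12 arrays, at a detection p under 0.05. Of the 34 genes, 31 had a probe under their own symbol (49 probes), and 20 genes passed the detection requirement and were tested among 9134 genes in all. Spheroids were seeded at 5000 cells per well, cultured for 6 days with fresh medium at day 4, and then kept for 4 h in serum-free medium alone, with 250 ng/mL GDF11 or with 50 ng/mL TGFB1. Each group held 4 arrays, described in the labels as biological replicates, and the RNA of each was pooled from 2 wells. All 12 samples were the same unmodified line, and the doses of the ligands differed. The comparisons ask which of these genes differ from serum-free medium after either ligand, and between the ligands. Both comparisons with serum-free medium use the same 4 control arrays.

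Interferons are cytokines that act through JAK kinases and STAT transcription factors. Type I interferon brings Stat2 and Irf9 into a complex that binds the interferon-stimulated response element (ISRE), and interferon gamma acts through gamma-activated sequences (GAS). The genes these factors switch on include sensors and enzymes that act on viral RNA, antiviral effectors, and the proteasome subunits, peptide transporters and class I molecules that present peptides to T cells. Many are also transcribed at a low level without added interferon. GDF11 and TGFB1 belong to the TGF-beta family, whose receptors act through SMAD transcription factors.

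The arrays fell into 2 sets by overall brightness. Serum-free replicates 1, 2 and 4 and GDF11 replicate 1 had a mean raw intensity of 148.7 to 165.1, and the other 8 arrays (serum-free replicate 3, GDF11 replicates 2 to 4 and all 4 TGFB1 arrays) had 255.5 to 310.0. These are called dim and bright arrays below. Brightness was therefore uneven between the groups, and every comparison was also fitted with a term for bright arrays and on the 8 bright arrays alone, where serum-free medium is represented by 1 array. That lone array was assumed to vary like the others. From 41.18% to 49.57% of probes were detected per array, and replicate arrays of a group correlated at 0.966 to 0.996. Lmcd1, taken as a check that the cells responded, was 4.15 log2 units higher with GDF11 and 4.59 higher with TGFB1 (limma adjusted p = 2.02e-08 and 2.67e-09). The luminal keratin genes Krt8, Krt18 and Krt19 were detected on all 12 arrays, and the basal markers Krt5 and Trp63 on none. The other 5 of 7 basal markers (Krt14, Acta2, Itgb4, Itga6 and Vim) were detected and tested, and with TGFB1 Krt14 rose by 1.02 and Itga6 by 1.95 (limma adjusted p = 0.00666 and 0.000912). Of 8 listed luminal markers, 7 had a probe and 6 were tested. With TGFB1, Krt8, Krt18 and Cdh1 were called higher and Krt19 and Muc1 lower, against 34.4% of all genes called. With the term for bright arrays, only Krt19 and Muc1 of these luminal genes stayed called. Of the basal markers, Itga6 was also called higher with GDF11 in the fit by group (9.93% of all genes were called). With the term, Krt14, Itgb4 and Itga6 were called higher with both ligands, against 10.4% of all genes called with GDF11 and 15.9% with TGFB1.

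Much of the interferon-stimulated set lay near or below the background of the array. The 31 genes with a probe are plotted by raw signal for each array. Of these, 11 did not pass the detection requirement. Ifit1, Irf7, Oas1a, Psmb9, Rsad2 and Tap1 were detected on 0 arrays. Dhx58, Nmi and Psmb8 were detected on 1 array each. H2-K1, a classical class I heavy chain gene, was detected on 3 arrays (1 serum-free and 2 TGFB1), and Ifih1, which encodes the double-stranded RNA sensor MDA5, was also detected on 3 (1 GDF11 and 2 TGFB1). These genes were not well above background, and no change is given for them. Isg15, H2-D1 and Parp9 had no probe under their current symbol. An older symbol of Parp9 had a probe that the selection did not take, and it was detected on 0 arrays.

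**Figure D1:**
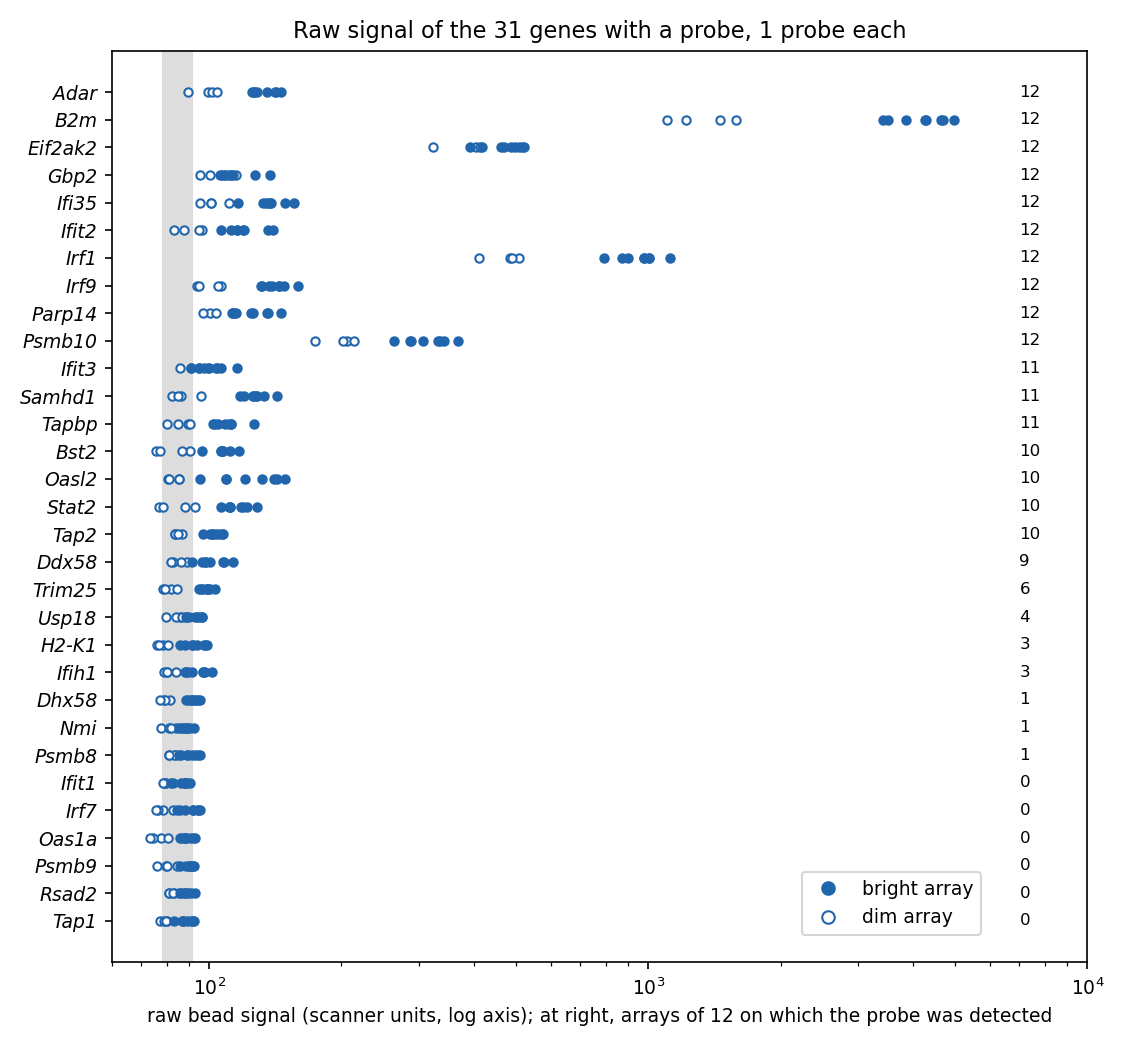
Raw bead signal (log axis, arbitrary units) on each of the 12 arrays for the 31 listed genes with a probe, 1 probe per gene. Points are single arrays in 1 colour, filled for bright and open for dim arrays. The grey band spans the arrays' median signal of undetected probes, 78.58 to 91.56, and the number at the right is the count of arrays on which the probe was detected. B2m lies far above the band, and the genes detected on few arrays lie on or beside it.

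Among the 20 tested genes, the class I light chain gene B2m gave a raw signal of 1101.2 to 4970.4, against a median of 78.58 to 91.56 for undetected probes. Oasl2, Ifit3 and Gbp2 were read much closer to background. The raw signal of Oasl2 ranged from 80.7 to 148.8, that of Ifit3 from 85.8 to 115.9 and that of Gbp2 from 95.3 to 137.4. Sizes of change for such genes depend strongly on how background is removed, as given beside each gene.

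The promoters of the 4 genes that carry the results are shown to set their sequence beside their levels. Each window runs from 250 bases before to 50 bases after the transcription start, on the gene's own strand, from RefSeq on GRCm38.p6. Positions have no 0: bases before the start site are negative, and the start-site base is the first positive one. Capitals mark ISRE letters (GAAA, 2 bases of any kind and GAAA again, on either strand, which reads TTTC, 2 bases and TTTC on the other) and GAS letters (TTCNNNGAA, which reads alike on both strands). The coordinates are chr5:114896684-114896983 (plus strand) for Oasl2, chr19:34583279-34583578 (plus) for Ifit3, chr3:142620413-142620712 (plus) for Gbp2 and chr17:78882523-78882822 (minus) for Eif2ak2.
Oasl2: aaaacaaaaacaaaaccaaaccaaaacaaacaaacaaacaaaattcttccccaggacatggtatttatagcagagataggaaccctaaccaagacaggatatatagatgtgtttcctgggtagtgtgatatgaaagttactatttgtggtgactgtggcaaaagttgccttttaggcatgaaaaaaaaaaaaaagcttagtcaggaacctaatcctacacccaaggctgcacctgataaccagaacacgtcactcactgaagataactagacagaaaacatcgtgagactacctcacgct
Ifit3: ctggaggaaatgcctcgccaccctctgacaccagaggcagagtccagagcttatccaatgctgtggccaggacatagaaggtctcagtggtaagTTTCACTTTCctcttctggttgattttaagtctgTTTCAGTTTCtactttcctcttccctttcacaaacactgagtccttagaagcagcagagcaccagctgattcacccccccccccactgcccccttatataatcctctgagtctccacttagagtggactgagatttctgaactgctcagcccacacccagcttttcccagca
Gbp2: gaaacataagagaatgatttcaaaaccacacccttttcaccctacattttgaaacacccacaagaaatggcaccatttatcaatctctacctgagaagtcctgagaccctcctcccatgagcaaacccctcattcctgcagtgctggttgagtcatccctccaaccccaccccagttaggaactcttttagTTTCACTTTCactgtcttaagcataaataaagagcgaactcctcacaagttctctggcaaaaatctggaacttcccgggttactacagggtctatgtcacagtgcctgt
Eif2ak2: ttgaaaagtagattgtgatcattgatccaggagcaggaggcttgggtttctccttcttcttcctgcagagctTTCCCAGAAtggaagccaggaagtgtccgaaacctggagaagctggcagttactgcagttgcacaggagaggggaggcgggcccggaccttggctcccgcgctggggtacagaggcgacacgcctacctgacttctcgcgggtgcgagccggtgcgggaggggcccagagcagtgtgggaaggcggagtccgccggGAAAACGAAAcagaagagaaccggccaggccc
Ifit3 has ISRE letters starting at positions -156 and -122 from the start site, and Gbp2 at -59. Eif2ak2 has ISRE letters at position 19 and GAS letters at -178. Oasl2 has neither motif in this window. ISRE letters occurred in 12 of the 29 listed genes with a window (41.4%), against 3.99% of all 27025 symbols with a window, and GAS letters in 9 of 29 (31%), against 9.55% of symbols. Of all 32851 windows, 3.44% held ISRE and 8.3% held GAS letters. A match of letters is a description and does not show that a factor binds there.

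With TGFB1, 1 of the 20 tested genes rose and 6 fell (limma adjusted p under 0.05). Oasl2 rose, and Ifit3, Gbp2, Eif2ak2, Parp14, Ifi35 and Psmb10 fell. Over all 9134 genes, 34.4% were called, 15.7% higher and 18.7% lower, so 7 of 20 is a share near the background. The median log2 difference of the 20 genes was -0.28, against -0.01 over all genes. Groups did not overlap for 7 of the 20 genes, against 33.5% of all genes. An unadjusted p under 0.05 was reached by 11 of 20 genes, against 4263 of 9134.

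With GDF11, 1 of 20 genes rose (Oasl2) and 3 fell (Ifit3, Gbp2 and Psmb10), against 9.93% of all genes called, 4.78% higher and 5.15% lower. The median log2 difference of the 20 was -0.30 (-0.22 with Usp18, undetected on the GDF11 arrays, at its bound), against -0.02 over all genes, with 8 genes above 0 and 12 below. An unadjusted p under 0.05 was reached by 9 of 20, against 2690 of 9134. Groups did not overlap for 4 of 20 genes, against 10.7% of all genes. The count rested on single arrays: it was 10 without serum-free replicate 3 and 7 without GDF11 replicate 1, 2 without serum-free replicate 4, and 1 without serum-free replicate 2 or without GDF11 replicate 2, 3 or 4. The calls over all 9134 genes moved likewise, to 2833 without serum-free replicate 3, 3367 without GDF11 replicate 1, and 444 to 517 without the other arrays just named. The count with TGFB1 was 11 without serum-free replicate 3, where 4453 of all genes were called. Median scaling moved the median of all genes to 0.34 with GDF11 and 0.60 with TGFB1, and called 0 of the 20 genes with GDF11 and 3 higher and 2 lower with TGFB1. Under that scaling 267 of all 9134 genes were called with GDF11 and 4122 with TGFB1.

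Brightness moved with several of these genes. In the fit with both group and brightness, 8 of the 20 genes differed between bright and dim arrays, against 49.2% of all genes (22.7% higher and 26.5% lower on bright arrays). B2m was higher on bright arrays (0.32 log2 units, limma adjusted p = 0.0398). Lower on bright arrays were Eif2ak2 by -0.92 ± 0.11 (SE, adjusted p = 3.38e-05), Gbp2 by -0.77 (adjusted p = 0.000236), Parp14 by -0.65 (adjusted p = 0.00587), Ifit3 by -0.58 (adjusted p = 0.0146), Irf9 by -0.42 (adjusted p = 0.0372), Psmb10 by -0.36 (adjusted p = 0.0338) and Ifi35 by -0.33 (adjusted p = 0.0412). Oasl2 did not pass that test (-0.01, adjusted p = 0.969). With the brightness term, 3 genes were called with GDF11 (Oasl2 higher, Ifit3 and Gbp2 lower), against 10.4% of all genes (5.62% higher, 4.82% lower), and 4 with TGFB1 (Oasl2 higher, Eif2ak2, Ifit3 and Gbp2 lower), against 15.9% (7.93% in each direction). On bright arrays alone, 2 were called with GDF11 (Oasl2 higher, Gbp2 lower), against 6.16% of all genes (3.58% higher, 2.58% lower), and 4 with TGFB1 (Oasl2 higher, Ifit2, Ifit3 and Gbp2 lower), against 17.1% (8.63% higher, 8.43% lower). The median difference of the 20 genes was -0.25 with GDF11 and -0.22 with TGFB1 with the term, and -0.15 and -0.21 on bright arrays alone.

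**Figure D2:**
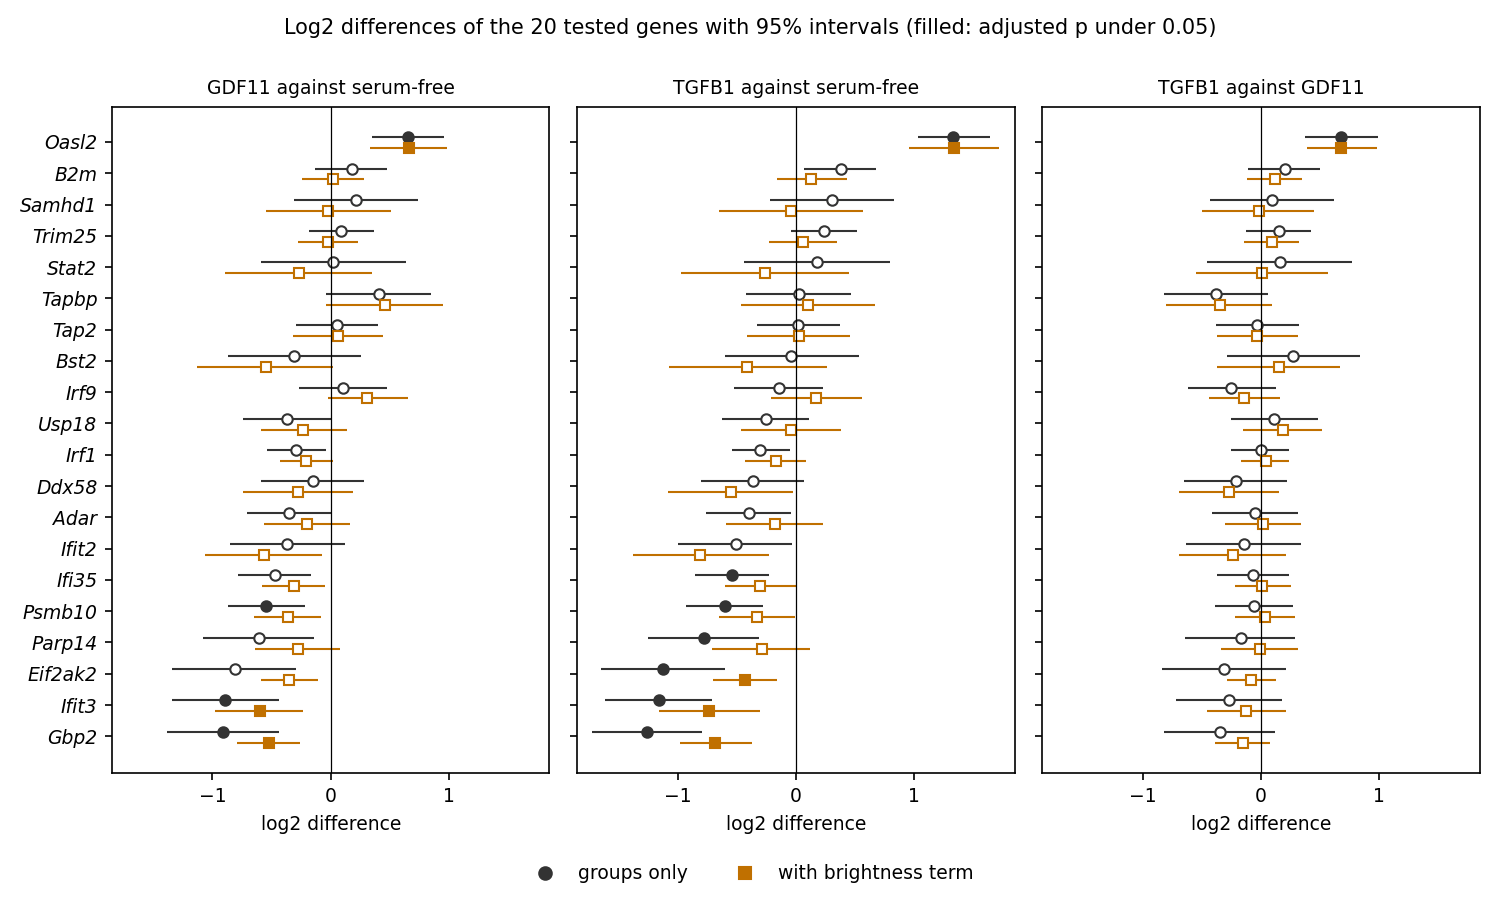
Log2 differences with 95% intervals for the 20 tested genes. Panels show GDF11 against serum-free medium (left), TGFB1 against serum-free medium (middle) and TGFB1 against GDF11 (right). Genes are ordered by the TGFB1 difference from serum-free medium in the fit by group. Black circles are the fit by group and orange squares the fit with a brightness term, and filled symbols passed an adjusted p of 0.05. Oasl2 is the 1 gene called higher in any panel, and Ifit3 and Gbp2 stay called lower in the left and middle panels with the term. Usp18 is drawn at its fitted difference although no GDF11 array detected it.

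Oasl2, a member of the oligoadenylate synthetase family that responds to double-stranded RNA, was the 1 tested gene of the set that rose with both ligands. On the normalized log2 scale its levels in serum-free medium were 4.29, 4.23, 4.46 and 4.82, with GDF11 5.13, 4.91, 5.15 and 5.23, and with TGFB1 5.74, 5.61, 5.93 and 5.85. All GDF11 arrays lay above all serum-free arrays, and all TGFB1 arrays lay above all GDF11 arrays. The group means were 4.45 ± 0.27, 5.10 ± 0.13 and 5.78 ± 0.14 (SD, n = 4). The rise was 0.65 ± 0.14 log2 units (SE), or 1.57-fold, with GDF11 and 1.33 ± 0.14, or 2.52-fold, with TGFB1 (limma adjusted p = 0.0116 and 1.8e-05). The probe was detected on 2 of 4 serum-free arrays and on all 8 ligand arrays, so the serum-free level is close to the lowest that the array resolves.

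The rise of Oasl2 was as large with brightness in the fit. It was 0.66 with GDF11 and 1.34 with TGFB1 with the brightness term (limma adjusted p = 0.0136 and 0.000114), and 0.63 and 1.32 on bright arrays alone (adjusted p = 0.0322 and 4.63e-05). The TGFB1 call was kept in 41 of 41 alternatives, although the size was 0.39 without background correction and 0.34 in the authors' processed values. The GDF11 call was kept in 33 of 41 and in each of the 12 fits that left out 1 array. It was lost without background correction (0.17, adjusted p = 0.0507), with median scaling (0.67, adjusted p = 0.0647), with cyclic loess (0.31, adjusted p = 0.226) and in the authors' processed values (0.14, adjusted p = 0.0552). A second Oasl2 probe was detected on 2 arrays and was not tested.

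Oasl2 was also the 1 gene of the set called between the ligands, 0.68 ± 0.14 log2 units or 1.6-fold higher with TGFB1 than with GDF11 (limma adjusted p = 0.041). Over all genes 0.832% were called in that comparison (0.438% higher with TGFB1), and groups did not overlap for 1 of 20 genes of the set, against 10.5% of all genes. The median difference of the 20 genes was -0.06, and 1 of 20 reached an unadjusted p under 0.05. The Oasl2 difference was 0.68 with the brightness term (adjusted p = 0.0156) and 0.69 on bright arrays alone (adjusted p = 0.00167). It was kept in 27 of 41 alternatives. It was lost when GDF11 replicate 2, 3 or 4 was left out (adjusted p = 0.168, 0.116 and 0.069) and when TGFB1 replicate 1, 2, 3 or 4 was left out (adjusted p = 0.125, 0.0746, 0.178 and 0.151). For the other 19 genes the comparison between the ligands did not pass the test, which does not show that the ligands act alike. The interval of the difference for Tapbp, for example, was -0.82 to 0.06 log2 units around -0.38.

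**Figure D3:**
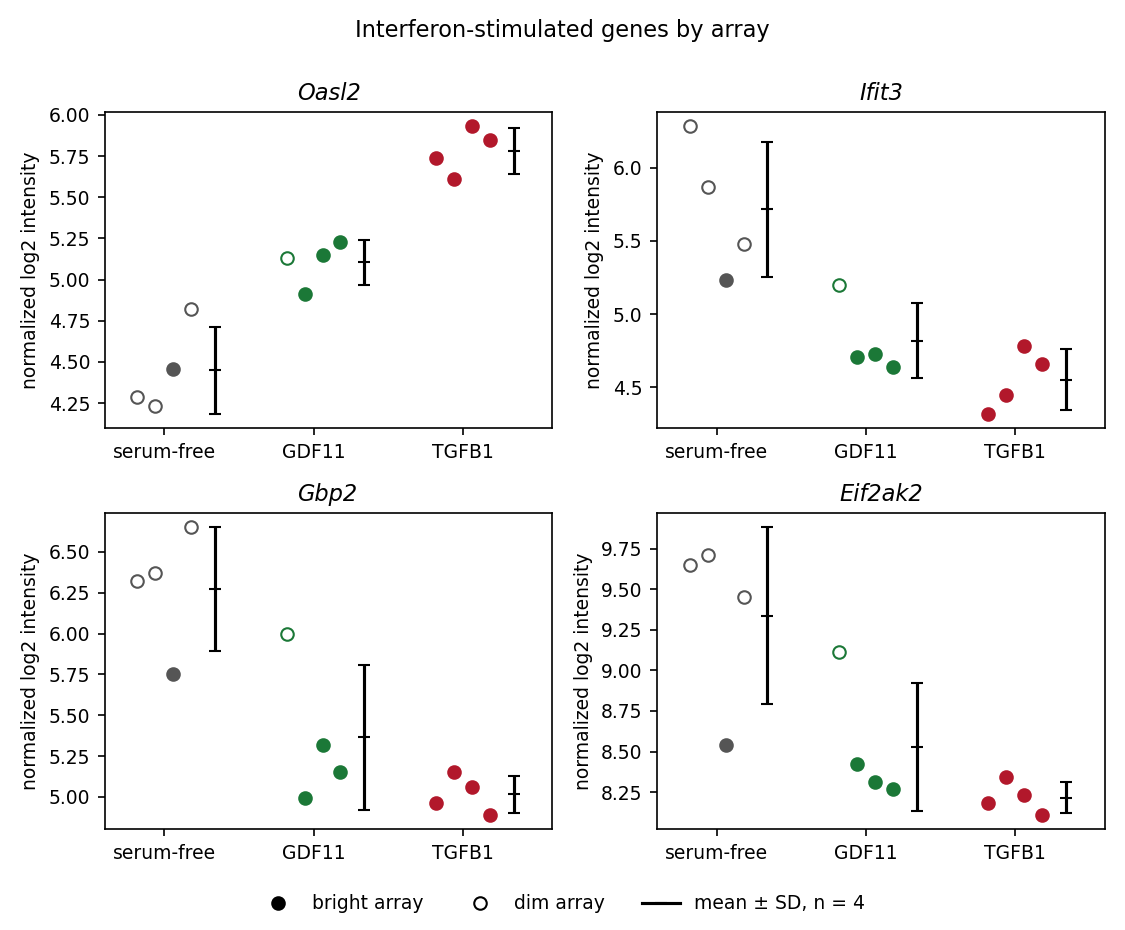
Normalized log2 level of Oasl2, Ifit3, Gbp2 and Eif2ak2 on each array, by group, filled for bright and open for dim arrays; bars are the mean ± SD of 4 arrays. Oasl2 steps upward from serum-free medium to GDF11 to TGFB1 with no overlap, and the other genes are lower in the ligand groups, with open points above filled points for Eif2ak2.

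Among the other enzymes and sensors of double-stranded RNA, Eif2ak2, which encodes the kinase PKR that halts translation, fell with TGFB1. Its levels were 9.65, 9.71, 8.54 and 9.45 in serum-free medium, 9.11, 8.42, 8.31 and 8.27 with GDF11, and 8.18, 8.34, 8.23 and 8.11 with TGFB1. The low serum-free value (8.54) was the bright array and the high GDF11 value (9.11) the dim one, and every TGFB1 array lay below every serum-free array. The TGFB1 difference was -1.12 ± 0.24, or 2.18-fold lower (limma adjusted p = 0.00428), -0.43 with the brightness term (adjusted p = 0.0317) and -0.33 on bright arrays alone (adjusted p = 0.114). Under median scaling it was -0.27 (adjusted p = 0.132). With GDF11 the difference was -0.81 ± 0.24 (adjusted p = 0.0512), which passed without serum-free replicate 3 (-1.08, adjusted p = 0.00162) and without GDF11 replicate 1 (-1.01, adjusted p = 0.00518).

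Adar, the enzyme that edits adenosine to inosine in double-stranded RNA, and Ddx58, the RNA sensor RIG-I, were not called. Adar lay at 5.50 to 6.26 in serum-free medium, 5.59 to 5.78 with GDF11 and 5.42 to 5.84 with TGFB1, differences of -0.35 and -0.40 (limma adjusted p = 0.187 and 0.079). The other Adar probes that were detected gave differences above 0, of 0.46 and 0.09 with GDF11 and 0.38 and 0.11 with TGFB1, so the probes of this gene disagreed in sign. Ddx58 lay at 4.40 to 5.51, 4.46 to 4.94 and 4.32 to 4.64 in the same order, differences of -0.15 and -0.36 (adjusted p = 0.624 and 0.17).

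Of the antiviral effectors, Ifit3 and Gbp2 fell with both ligands. Ifit3 encodes a tetratricopeptide repeat protein that binds other IFIT proteins. Its levels were 6.28, 5.87, 5.23 and 5.48 in serum-free medium, 5.20, 4.71, 4.73 and 4.64 with GDF11, and 4.32, 4.45, 4.78 and 4.66 with TGFB1. No ligand array reached the lowest serum-free array, the bright one at 5.23, and the highest GDF11 value came from the dim array. The fall was -0.89 ± 0.21, or 1.86-fold, with GDF11 and -1.16 ± 0.21, or 2.24-fold, with TGFB1 (limma adjusted p = 0.017 and 0.00126). With the brightness term the differences were -0.60 and -0.73 (adjusted p = 0.0415 and 0.023), and on bright arrays alone -0.53 and -0.68 (adjusted p = 0.083 and 0.0107).

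The GDF11 call of Ifit3 was lost with median scaling (-0.44, limma adjusted p = 0.211) and without serum-free replicate 2 (adjusted p = 0.0553) or GDF11 replicate 2, 3 or 4 (adjusted p = 0.0524, 0.0525 and 0.0601). The TGFB1 call was kept in 35 of 41 alternatives. Its size was -0.34 without background correction and -0.24 in the authors' processed values. Raw signals put these differences in scale: Ifit3 read 99.7, 97.5, 115.9 and 90.9 in serum-free medium, 85.8, 103.4, 106.5 and 94.8 with GDF11, and 91.0, 94.8, 103.9 and 99.3 with TGFB1. Raw signals overlapped between the groups. Among the bright arrays the serum-free array was highest, and among the dim arrays the GDF11 array was lowest.

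Gbp2 encodes an interferon-induced GTPase that acts on the vacuoles of intracellular pathogens. Its levels were 6.32, 6.37, 5.75 and 6.65 in serum-free medium, 6.00, 4.99, 5.32 and 5.15 with GDF11, and 4.96, 5.15, 5.06 and 4.89 with TGFB1. TGFB1 arrays lay below all serum-free arrays, while the dim GDF11 array at 6.00 lay above the bright serum-free array at 5.75. The fall was -0.91 ± 0.22, or 1.88-fold, with GDF11 and -1.26 ± 0.22, or 2.39-fold, with TGFB1 (limma adjusted p = 0.0189 and 0.000949). With the brightness term the differences were -0.52 and -0.68 (adjusted p = 0.0144 and 0.00422), and on bright arrays alone -0.60 and -0.74 (adjusted p = 0.0361 and 0.00379).

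The TGFB1 call of Gbp2 was kept in 41 of 42 alternatives, at -0.45 without background correction and -0.33 in the authors' processed values. The GDF11 call was kept in 34 of 42. It was lost with median scaling (-0.41, limma adjusted p = 0.231), without serum-free replicate 2 or 4 (adjusted p = 0.0569 and 0.0657) and without GDF11 replicate 2, 3 or 4 (adjusted p = 0.0653, 0.0534 and 0.0663). As for Ifit3, the serum-free array had the highest raw signal of the bright arrays (137.4) and the GDF11 array the lowest of the dim arrays (95.3).

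Ifit2, Bst2 and Samhd1 were not called. Ifit2, another member of the IFIT family, lay at 6.08, 4.95, 5.73 and 5.77 in serum-free medium and at 4.93 to 5.28 with TGFB1, a difference of -0.51 (limma adjusted p = 0.0911), and at 4.77 to 5.59 with GDF11, a difference of -0.37 (adjusted p = 0.283). The low serum-free value was replicate 2. Without it the TGFB1 difference was -0.74 (adjusted p = 0.0158), and on bright arrays alone it was -0.60 (adjusted p = 0.0191). A second Ifit2 probe gave 0.03 with GDF11 and -0.21 with TGFB1 (adjusted p = 0.96 and 0.576). Bst2, which tethers budding virions to the membrane, differed by -0.31 with GDF11 and -0.04 with TGFB1 (adjusted p = 0.431 and 0.924). Samhd1, which depletes deoxynucleotides, differed by 0.21 and 0.31 (adjusted p = 0.56 and 0.336).

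The 3 tested transcription factors of the set, Irf1, Irf9 and Stat2, did not pass the test with either ligand. On the companion list of signalling genes described below, Irf2 was called lower with TGFB1 and Stat3 higher with both ligands. Neither Irf2 nor Stat3 was called with the brightness term. Irf1, a factor induced by interferon gamma, lay at 9.57 to 9.97 in serum-free medium, 9.39 to 9.53 with GDF11 and 9.33 to 9.58 with TGFB1. Its differences were -0.29 and -0.30 (limma adjusted p = 0.119 and 0.0612), and under median scaling they were 0.16 and 0.54. The other 4 Irf1 probes gave -0.48, -0.48, -0.55 and -0.03 with TGFB1 (adjusted p = 0.0105, 0.0287, 0.0857 and 0.91), and the first 2 of these gave -0.38 and -0.18 with the brightness term (adjusted p = 0.0763 and 0.46). Irf9, the DNA-binding subunit of the type I interferon complex, differed by 0.10 and -0.14 (adjusted p = 0.711 and 0.545). Stat2, its partner, differed by 0.02 and 0.18 (adjusted p = 0.964 and 0.645) and was at 4.16 to 5.62 in serum-free medium.

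Among genes of ubiquitin-like modification and regulation, Parp14 and Ifi35 fell with TGFB1 in the fit by group. Parp14, an ADP-ribosyltransferase, was 6.32, 6.18, 5.72 and 6.57 in serum-free medium, 6.09, 5.39, 5.50 and 5.38 with GDF11, and 5.43, 5.20, 5.88 and 5.15 with TGFB1. TGFB1 replicate 3 lay above the bright serum-free array, so the groups overlapped. The GDF11 difference was -0.61 (limma adjusted p = 0.0922). The TGFB1 difference was -0.78 ± 0.22 (limma adjusted p = 0.0161), -0.29 with the brightness term (adjusted p = 0.364) and -0.30 on bright arrays alone (adjusted p = 0.394). It was lost without serum-free replicate 4 (-0.66, adjusted p = 0.0537) or TGFB1 replicate 4 (-0.69, adjusted p = 0.0524), and with median scaling it was -0.01.

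Ifi35, whose protein pairs with Nmi, was 6.33, 6.46, 5.98 and 6.12 in serum-free medium, 6.00, 5.67, 5.88 and 5.45 with GDF11, and 5.59, 5.72, 5.73 and 5.70 with TGFB1. Every TGFB1 array lay below every serum-free array. The GDF11 difference was -0.47 (limma adjusted p = 0.0523). The TGFB1 difference was -0.54 ± 0.14 (limma adjusted p = 0.0126), -0.30 with the brightness term (adjusted p = 0.194) and -0.30 on bright arrays alone (adjusted p = 0.225), and under median scaling it was 0.26. Usp18, which removes Isg15 from proteins, was detected on 2 serum-free, 0 GDF11 and 2 TGFB1 arrays. It was not well above background on any GDF11 array, and the GDF11 comparison did not pass the test (adjusted p = 0.168). Its serum-free mean, from 2 detected and 2 undetected arrays, lay 1.11-fold above the GDF11 bound, and the groups overlapped. On bright arrays alone the GDF11 difference was 0.09. With TGFB1 Usp18 differed by -0.25 (adjusted p = 0.255). A bound is taken against the lowest detected signal of each array. Trim25, a ubiquitin ligase that acts on RIG-I, differed by 0.09 and 0.24 (adjusted p = 0.641 and 0.159).

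Of the antigen presentation genes, Psmb10, a catalytic subunit of the immunoproteasome, fell with both ligands in the fit by group. Its levels were 8.38, 8.18, 7.92 and 8.10 in serum-free medium, 7.92, 7.27, 7.52 and 7.68 with GDF11, and 7.33, 7.65, 7.64 and 7.54 with TGFB1. The dim GDF11 array and the bright serum-free array met at 7.92, and the TGFB1 arrays lay below all serum-free arrays. The differences were -0.55 ± 0.15, or 1.46-fold lower, and -0.60 ± 0.15, or 1.52-fold lower (limma adjusted p = 0.0381 and 0.01). In the fit that includes brightness the differences were -0.36 and -0.33 (adjusted p = 0.101 and 0.167), and bright arrays alone gave -0.43 and -0.38 (adjusted p = 0.18 and 0.151).

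A second Psmb10 probe gave -0.09 with GDF11 and -0.25 with TGFB1 (limma adjusted p = 0.719 and 0.203), and -0.26 and -0.51 with the brightness term (adjusted p = 0.233 and 0.0271). Under median scaling the first probe's TGFB1 difference was 0.28. The TGFB1 call was kept in 22 of 42 alternatives and the GDF11 call in 12 of 42. The GDF11 call was lost without serum-free replicate 1, 2 or 4 (adjusted p = 0.109, 0.0908 and 0.0761), without GDF11 replicate 2, 3 or 4 (adjusted p = 0.124, 0.105 and 0.0785) and without TGFB1 replicate 2, 3 or 4 (adjusted p = 0.0552, 0.0569 and 0.0583).

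B2m, the light chain of class I molecules, was not called but lay at 11.14 to 11.47 in serum-free medium, 11.16 to 11.74 with GDF11 and 11.60 to 11.83 with TGFB1. The TGFB1 arrays were all above the serum-free arrays, by 0.38 ± 0.14 on average (limma adjusted p = 0.0533), and by 0.13 with the brightness term (adjusted p = 0.594). The GDF11 difference was 0.18 (adjusted p = 0.4). A second B2m probe gave 0.70 with TGFB1 (adjusted p = 0.00619) and 0.32 with the term (adjusted p = 0.104). B2m passed the test with TGFB1 in 10 alternatives, among them no background correction (0.36, adjusted p = 0.0306). Tap2, a subunit of the peptide transporter, differed by 0.05 and 0.02 with GDF11 and TGFB1 (adjusted p = 0.839 and 0.929). Tapbp, which encodes tapasin, differed by 0.41 and 0.03 (adjusted p = 0.204 and 0.933).

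The tested genes with ISRE letters in the window shown above were Stat2, Ddx58, Eif2ak2, Ifit3, Bst2, Gbp2 and B2m. Of these 7, 0 rose and 2 fell with GDF11 and 0 rose and 3 fell with TGFB1, with median differences of -0.31 and -0.36. Over all genes 9.93% were called with GDF11 (5.15% lower) and 34.4% with TGFB1 (18.7% lower). Of the 10 tested genes with a window and no ISRE letters, 1 rose and 1 fell with GDF11 and 1 rose and 2 fell with TGFB1, with medians of -0.10 and -0.22. The difference between these classes was not tested.

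Genes upstream of the set were described from a companion list of 34 interferon ligands, receptors and signalling genes, of which 19 were tested. With GDF11 2 rose and 1 fell, against 9.93% of all genes called, and with TGFB1 3 rose and 4 fell, against 34.4%. With the brightness term 1 rose (Jak2) and 1 fell (Ifngr1) with GDF11, against 10.4% of all genes called. In that fit 2 rose (Jak2 and Ptpn11) and 1 fell (Ifngr1) with TGFB1, against 15.9%. Ifngr1, a chain of the interferon gamma receptor, was 8.98, 9.11, 8.91 and 9.11 in serum-free medium, 8.54, 8.75, 8.57 and 8.54 with GDF11, and 8.03, 8.05, 8.04 and 7.93 with TGFB1. The groups did not overlap, and the levels stepped down from serum-free medium to GDF11 to TGFB1. It fell by 0.43 ± 0.11 with GDF11 and by 1.01 ± 0.11 with TGFB1 (limma adjusted p = 0.0211 and 1.42e-05), and with the brightness term the differences were -0.41 and -0.99 (adjusted p = 0.0182 and 4.5e-05). It was lower with TGFB1 than with GDF11 by -0.59 ± 0.11 (adjusted p = 0.0181). The GDF11 call was lost without serum-free replicate 2 or 4 or GDF11 replicate 3 or 4, with adjusted p between 0.0605 and 0.0709. The call between the ligands was lost without GDF11 replicate 2 or 3 or any TGFB1 array, with adjusted p between 0.0628 and 0.084. With median scaling the differences were 0.04 with GDF11, -0.15 with TGFB1 and -0.19 between the ligands (adjusted p = 0.925, 0.65 and 0.681), and on bright arrays alone the GDF11 difference was -0.29 (adjusted p = 0.244).

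Jak2, a kinase that signals from that receptor, rose with both ligands. Its levels were 7.70, 7.59, 8.00 and 7.68 in serum-free medium, 8.18, 8.83, 8.95 and 8.99 with GDF11, and 9.16, 8.87, 9.04 and 8.93 with TGFB1. All ligand arrays lay above all serum-free arrays, by 0.99 ± 0.17 and 1.26 ± 0.17 on average (limma adjusted p = 0.00263 and 0.000162), and by 0.72 and 0.85 with the brightness term (adjusted p = 0.00107 and 5e-04). The receptor chains Ifngr2 and Ifnar2 were not called with either ligand in the fit by group. Ifnlr1, the receptor chain for interferon lambda, named after its values were seen, differed by -0.98 with TGFB1 (adjusted p = 0.0173) and by -0.21 with the brightness term (adjusted p = 0.465). Ifnb1 and Ifnar1 were detected on 0 arrays.

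Further interferon-stimulated genes numbered 61 on a second list, of which 25 were tested. With GDF11 1 rose and 0 fell, against 9.93% of all genes called, and with TGFB1 3 rose and 4 fell, against 34.4%. The medians were -0.02 and -0.09. Ifi47, an immunity-related GTPase, rose by 0.88 ± 0.16 and 1.06 ± 0.16 (limma adjusted p = 0.00381 and 0.000354). On bright arrays alone the differences were 0.47 and 0.58 (adjusted p = 0.0726 and 0.00972), and without background correction 0.26 and 0.32. Pml, the organizer of nuclear bodies, differed by -0.73 with TGFB1 (adjusted p = 0.00185; -0.48 with the brightness term, adjusted p = 0.0233), and under median scaling by 0.16. Cd274, which encodes the checkpoint ligand PD-L1, differed by -0.74 with TGFB1 (adjusted p = 0.00507; -0.36 with the term, adjusted p = 0.0848).

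The shares called over all genes, 9.93% with GDF11 and 34.4% with TGFB1, apply to the next 3 lists too. Of 20 nucleic acid sensing genes 14 were tested, and 0 rose and 1 fell with GDF11 and 0 rose and 2 fell with TGFB1. Of 36 further antigen presentation genes 18 were tested, and 1 rose and 1 fell with GDF11 and 3 rose and 1 fell with TGFB1. Fcgrt, the heavy chain of the neonatal Fc receptor, was 5.33, 6.05, 5.68 and 6.02 in serum-free medium, 7.11, 6.93, 7.17 and 7.39 with GDF11, and 8.26, 7.72, 7.88 and 7.97 with TGFB1. No groups overlapped. It rose by 1.38 ± 0.17 and 2.19 ± 0.17 (limma adjusted p = 0.000244 and 1.37e-06), a call kept in 42 of 42 alternatives with either ligand, at 0.66 and 1.19 without background correction and 0.65 and 1.20 in the authors' processed values. Tapbpl, a tapasin-related editor of class I peptides, lay at 5.52 to 5.74 in serum-free medium, 5.30 to 5.87 with GDF11 and 6.12 to 6.56 with TGFB1. It rose by 0.74 ± 0.14 with TGFB1 (adjusted p = 0.0017; 0.75 with the brightness term, adjusted p = 0.00747). H2-M3, a nonclassical class I gene, differed by -0.69 and -0.96 (adjusted p = 0.0241 and 0.00141). Its GDF11 call was lost without serum-free replicate 1, 2 or 4 or GDF11 replicate 2, 3 or 4, with adjusted p between 0.0615 and 0.0817. Both calls were lost on bright arrays alone (-0.25 and -0.40, adjusted p = 0.341 and 0.0564) and with median scaling (-0.19 and -0.28, adjusted p = 0.389 and 0.124). Of 14 constitutive 20S proteasome genes 11 were tested, with 0 called with GDF11, 1 higher and 2 lower with TGFB1, and 0 called in either comparison with the brightness term.

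**Figure D4:**
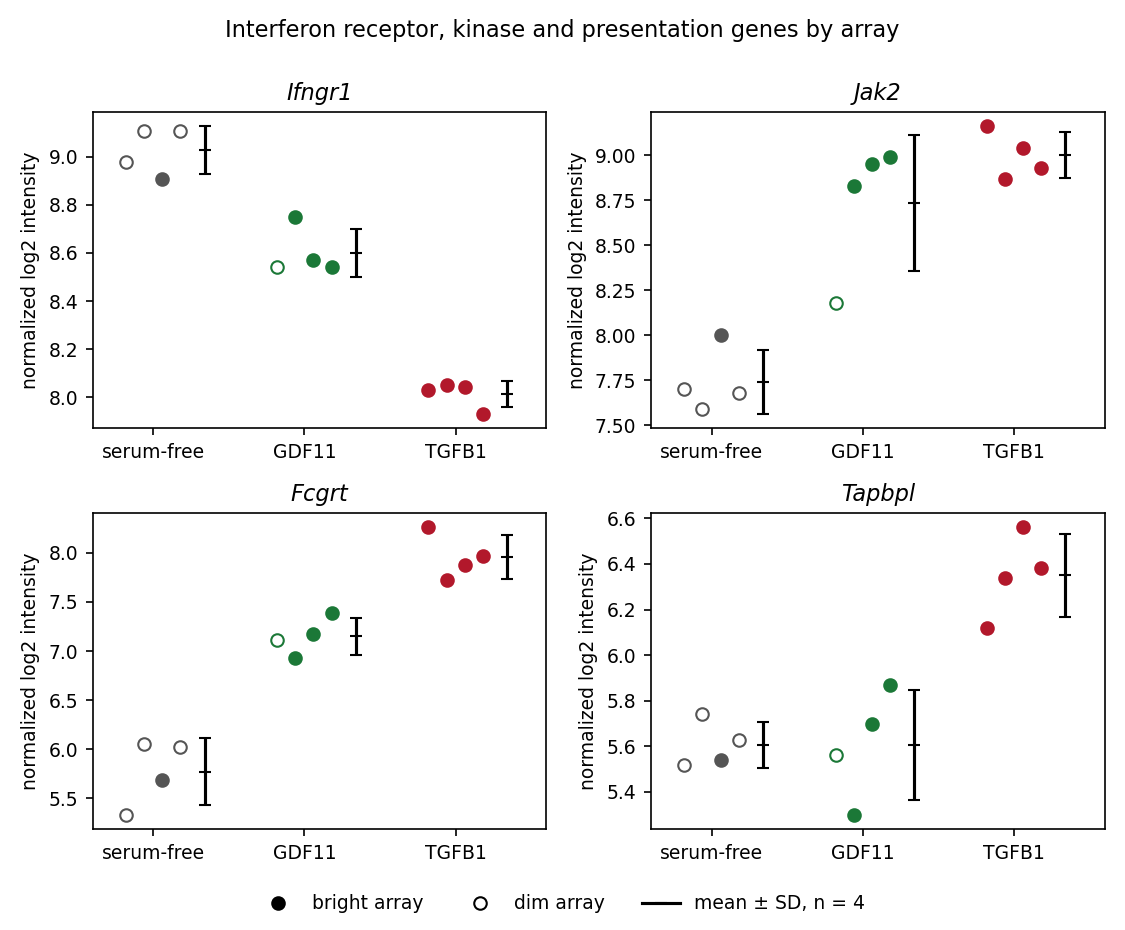
Normalized log2 level of Ifngr1, Jak2, Fcgrt and Tapbpl on each array, by group, filled for bright and open for dim arrays; bars are the mean ± SD of 4 arrays. Ifngr1 steps down and Fcgrt up from serum-free medium to GDF11 to TGFB1, Jak2 is higher in both ligand groups, and Tapbpl is higher with TGFB1.

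Other cell types were checked through their markers, because leukocytes and stromal cells also express these genes. Of 10 leukocyte markers, Cd14 was detected on all 12 arrays and was the 1 marker detected on at least 4, and 6, among them Ptprc, were detected on 0 arrays. The summed normalized level of the leukocyte markers was 1161.7 to 1556.7 in serum-free medium, 1023.2 to 1424.4 with GDF11 and 1081.9 to 1225.8 with TGFB1, ranges that overlapped. With the other markers short of the detection requirement, this sum mainly follows Cd14 and is not a measure of leukocyte content. Cd14 differed by -0.20 with TGFB1 in the fit by group (limma adjusted p = 0.301), and it was lower by -0.55 with the brightness term (adjusted p = 0.00276) and by -0.52 on bright arrays alone (adjusted p = 0.0145). Of 7 fibroblast and 5 endothelial markers, 0 were detected on at least 4 arrays, and of 5 adipocyte markers 1. This was Cidec, which was detected on 0 serum-free and on all 8 ligand arrays. It met the detection requirement only through the ligand groups, so its p-values are not given as support. Its level lay at least 1.33-fold above serum-free medium with GDF11 and at least 1.08-fold above with TGFB1. On bright arrays alone the fitted log2 differences were 0.58 and 0.45. In these bulk samples fewer cells of a kind and less RNA per cell cannot be told apart. Whether Cd14 or Cidec bears on any result was not tested.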

How the data were processed

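The labels describe 12 samples of NMuMG spheroids, hybridized as biotin-labelled cRNA to 1-colour Illumina beadchips. The deposited table gives, per the file headers, the bead signal of each probe as an intensity with no background subtracted, a detection p-value, a bead standard error (an intensity) and, as another measure, a bead number. The authors' processed values lie on a log2-like scale with column medians of 6.90 to 6.92, each column keeping the rank order of its raw intensities. The submitters' processing notes name lumi without saying which version or for what step. Neither the log base nor the transformation of these values is known here.

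Intensities were background-corrected, quantile normalized and put on the log2 scale with neqc of limma 3.58.1 in R 4.3.3 (offset 16, which pulls changes of dim genes toward 0). Of 25697 probes, the 12680 with a detection p under 0.05 on 4 or more of 12 arrays stayed in, and the probe of highest mean stood for each gene. Groups were compared with lmFit and eBayes over 9134 genes with Benjamini-Hochberg adjustment, and every adjusted p in the text is from limma. The 2 brightness sets were split at the widest gap in mean raw intensity. Slide positions were not used here. Samples were treated as unpaired. Same-numbered arrays correlated at -0.33 to 0.61 in their deviations from group means. These deviations moved with brightness: serum-free replicate 3 correlated at 0.61 to 0.64 with GDF11 replicates 2 to 4 and at -0.79 with GDF11 replicate 1. The correlations therefore cannot show whether replicate numbers pair the samples. Names were taken from the array's symbols, updated through RefSeq (GRCm38.p6). Of 34 listed genes, 29 had a promoter window, and Dhx58, Parp14, Tap2, Parp9 and Usp18 did not.

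The genes and companion lists were chosen with earlier results of these data known. Named genes were the listed genes with a probe, up to 4 called genes of each companion list per comparison, and a fixed set of receptor, signalling and proteasome genes, of which 1 is not reported here. Alternatives covered background correction, offset, scaling, the authors' values, the detection filter, probe choice, brightness, a replicate block and leaving out each array. Fits that join brightness with a further choice were chosen after seeing the data. The test was checked on simulated data. In it, 80% of genes given a log2 change of 1 and 24% of those given 0.5 were recovered for TGFB1 against serum-free medium. The simulated arrays had independent noise and no brightness split, and 50 of 9134 genes were changed at each size. In the real arrays many more genes were called and brightness was uneven, so these rates are not the power of the real comparisons. The number of arrays limits the precision, and the p-values measure the spread between these samples.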

Additional observations from a re-analysis of the deposited data

Results flagged for a closer look

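Each group of 4 arrays was searched for a value standing far from the other 3 relative to the range of the group. Of 60 groups tested (20 genes in 3 groups), 3 held such a value, and chance gives about 1 in 20. All 3 values were from GDF11 replicate 1, the 1 dim array of its group. Irf9 was at 6.47 there, against 5.93 on the nearest array, a gap of 0.839 of the range. Ifit3 was at 5.20, against 4.73 on the nearest array, a gap of 0.837 of the range. Parp14 was at 6.09, against 5.50, a gap of 0.835 of the range. Without that array the GDF11 difference was -1.02 for Ifit3 (limma adjusted p = 0.00358), -0.77 for Parp14 (adjusted p = 0.0112) and -0.05 for Irf9 (adjusted p = 0.825).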

How the results depend on the processing

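Calls among the 20 genes with GDF11 were 4, and 0 with median scaling (6 at an unadjusted p under 0.05 by limma), 2 on bright arrays alone, 1 to 10 with 1 array left out, and 0 to 5 when the brightness term was joined with that. With TGFB1 they were 7, and 4 with the brightness term or on bright arrays alone, 3 with the term and either no background correction or the authors' values, 6 to 11 with 1 array left out, and 2 to 5 when the term was joined with that. Between the ligands the 1 call became 0 with no background correction, with detection on all 12 arrays, with trend and robust eBayes, and with every detected probe, and 0 to 1 with 1 array left out, with or without the term. The 8 calls between bright and dim arrays (49.2% of all genes were called there) became 15 with median scaling, all higher. They became 4 in the authors' values, and 3 to 9 with 1 array left out. The share of all genes called was not counted for these alternatives, so the 15 calls cannot be read as particular to these genes. Over all genes, the 907 GDF11 calls became 267 with median scaling, 563 on bright arrays alone and 444 to 3367 with 1 array left out. The 3140 TGFB1 calls became 1448 with the term, 1558 on bright arrays alone and 2046 to 4453 with 1 array left out. The 76 calls between the ligands became 43 with median scaling, 128 with cyclic loess, 229 with the term, 536 on bright arrays alone and 19 to 109 with 1 array left out.

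Median scaling reversed the TGFB1 difference of Irf9 (0.61, limma adjusted p = 0.0399), Ifi35 (0.26), Psmb10 (0.28), Socs3 (0.02), Ifngr2 (0.87, adjusted p = 0.0226), Pml (0.16), Ikbke (0.09), Mavs (0.42), Psmb2 (0.19, and 0.05 with the term) and Psma2 (0.16, and 0.04 with the term), and the GDF11 difference of Ifngr1 (0.04). The cause was not tested. The other scalings reversed no called value. A replicate block left the counts at 4, 7 and 1. It moved the GDF11 p of Eif2ak2 to 0.0373 and of Psmb10 to 0.0584. Oasl2, Ifit3 and Gbp2 were read close to background, so sizes of change shrink when less background is removed, and 11 listed genes with a probe did not pass the detection requirement.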

Other observations

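Isg20, an interferon-stimulated exonuclease, was detected on 1 serum-free, 3 GDF11 and 4 TGFB1 arrays. It differed by 1.43 ± 0.30 with TGFB1 (limma adjusted p = 0.00331) and by 0.54 with the brightness term (adjusted p = 0.00486). Socs3, an inhibitor of cytokine signalling, differed by -0.87 with TGFB1 (adjusted p = 0.00528) and by -0.39 with the term (adjusted p = 0.0977). Jak1, the kinase shared by both interferon receptors, differed by 1.10 with TGFB1 (adjusted p = 0.0051) and by 0.46 with the term (adjusted p = 0.0938). Stat3 differed by 0.80 with GDF11 (adjusted p = 0.0341) and 0.93 with TGFB1 (adjusted p = 0.00639), and by 0.48 and 0.46 with the term (adjusted p = 0.101 and 0.144). Psmb5, the constitutive proteasome subunit replaced by Psmb8 in the immunoproteasome, differed by 1.84 with TGFB1 (adjusted p = 0.0198) and by 0.35 with the term (adjusted p = 0.579). Psmb6 and Psmb7 were not called with either ligand, at 0.03 and 0.24 with GDF11 and 0.09 and 0.34 with TGFB1.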
